A study of Mus musculus with 30 samples.

Results

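Nuclear genes for the subunits of the oxidative phosphorylation complexes were followed in single mouse embryos with and without the RNA exosome ribonuclease DIS3, and at the binding sites of the transcription factor POU6F1 in mouse embryonic stem cells (mESCs). The genes were taken by symbol from the protein-coding genes of the GENCODE vM21 annotation: *Nduf* followed by a, b, c, s or v and a digit, *Uqcr*, *Cox4* to *Cox8*, *Atp5*, and *Sdha* to *Sdhd*. This rule uses no measured value and found 85 of the 55487 genes in the count files. Of these, 35 belong to complex I, 4 to complex II, 8 to complex III, 20 to complex IV and 18 to complex V. The embryos came from matings of *Dis3* het mice, whose null allele lacks exons 3–5, and the genotype of each embryo was read from its own DNA. At embryonic day 2.5 (E2.5) the wild-type group held 6 embryos, the het group 2 and the homozygous null group 4, and at E2.75 the numbers were 3 wild-type, 5 het and 3 null, each sequenced with ERCC spike-in RNA. Each RNA-seq library is 1 whole embryo, so that fewer cells of a type and less RNA per cell cannot be told apart. The binding data are peak lists of chromatin immunoprecipitation (ChIP-seq) with an anti-mCherry antibody, in mESCs derived from *Dis3* flox/flox blastocysts that carried transfected *Pou6f1-mCherry* under a CAG promoter, so they describe an overexpressed fusion protein in another cell type.

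Oxidative phosphorylation passes electrons from NADH through complex I, or from succinate through complex II, by way of ubiquinone to complex III, cytochrome c and complex IV, which reduces oxygen. Complexes I, III and IV pump protons across the inner mitochondrial membrane, and complex V, the ATP synthase, uses the gradient to make ATP. Complex II, succinate dehydrogenase, is also an enzyme of the tricarboxylic acid (TCA) cycle and is encoded by nuclear genes alone, whereas the other complexes join nuclear subunits with subunits made from mitochondrial DNA. Cleavage-stage mouse embryos carry mitochondria inherited from the oocyte and depend on pyruvate oxidation before glucose use rises towards the blastocyst.

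Each library held between 1690192 and 14015980 counts on genes, with a median of 8030848. The 2 shallowest, both E2.75 null embryos, held 1914128 and 1690192 counts. Reads outside annotated features took 32.3% to 43.9% of the counted reads in null libraries, 21.2% to 27.9% in het libraries and 20.99% to 33.4% in wild-type libraries. *Dis3*, counted over all its exons, stood at 0 to 21.5 CPM, the counts per library size after scaling by the trimmed mean of M values (TMM), in null, 30.4 to 59.2 in het and 18.0 to 146.8 CPM in wild-type embryos. E2.5 wild-type replicate 6, at 18.0 CPM, lay inside the null range. Comparisons between groups below used the edgeR quasi-likelihood test over all genes, and a gene was called at a Benjamini-Hochberg adjusted p under 0.1 with a log2 fold change beyond 1. Each embryo is a sample of its own, and no 2 libraries of a group agreed within sampling noise. The p-values measure the spread between embryos. The labels name no dam, litter or batch, so the tests treat embryos as independent, which was not tested. A difference in collection between E2.5 and E2.75 cannot be told apart from stage. Comparisons that share embryos, such as null against het and null against wild-type, are not independent of each other.

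The bases just before the annotated starts are shown for 7 members on which the results below turn: *Sdhb*, *Sdhd* and *Ndufv2*, which were lower in null embryos, the paralogs *Cox6b1* and *Cox6b2*, and *Ndufa6* and *Uqcr11*, which were lower at the later stage. They are RefSeq promoter windows on GRCm38.p6, cut to the part that holds no exon and written 5′ to 3′ on the gene's strand. The positions are chr4:140961121-140961202 (+) for *Sdhb*, chr9:50603850-50603909 (-) for *Sdhd*, chr17:66101560-66101709 (-) for *Ndufv2*, chr7:30626152-30626264 (-) for *Cox6b1*, chr7:4753095-4753225 (-) for *Cox6b2*, chr15:82354323-82354441 (-) for *Ndufa6* and chr10:80406831-80406971 (-) for *Uqcr11*. Capitals mark a match to the NRF1 core in *Ndufa6* and to the ETS site in *Uqcr11*.
Sdhb: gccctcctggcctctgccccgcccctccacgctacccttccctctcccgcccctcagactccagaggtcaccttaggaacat
Sdhd: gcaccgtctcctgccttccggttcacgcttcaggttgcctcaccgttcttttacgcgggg
Ndufv2: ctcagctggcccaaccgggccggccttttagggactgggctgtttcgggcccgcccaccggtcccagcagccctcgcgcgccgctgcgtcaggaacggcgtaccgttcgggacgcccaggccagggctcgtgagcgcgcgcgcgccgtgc
Cox6b1: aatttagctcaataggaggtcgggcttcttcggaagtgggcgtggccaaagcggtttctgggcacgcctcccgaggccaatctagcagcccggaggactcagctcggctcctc
Cox6b2: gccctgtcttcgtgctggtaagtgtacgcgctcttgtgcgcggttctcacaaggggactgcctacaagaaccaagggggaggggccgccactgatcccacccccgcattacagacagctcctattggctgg
Ndufa6: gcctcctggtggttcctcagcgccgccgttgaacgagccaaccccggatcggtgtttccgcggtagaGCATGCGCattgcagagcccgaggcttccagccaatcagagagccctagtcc
Uqcr11: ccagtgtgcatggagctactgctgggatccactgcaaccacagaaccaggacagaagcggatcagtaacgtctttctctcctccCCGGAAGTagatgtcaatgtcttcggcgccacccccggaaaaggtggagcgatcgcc

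A RefSeq window of 300 bases, from 250 before to 50 after the start, was at hand for 66 of the 85 members, as 71 windows. Both strands were searched for the letters of 4 motifs, beside all 32851 windows. The NRF1 core GCGCATGC, bound by a regulator of nuclear genes for respiration, was in 14.1% of the member windows and 2.71% of all windows. It was found for 10 members: *Atp5g2*, *Atp5k*, *Atp5l*, *Cox6a1*, *Ndufa11*, *Ndufa6*, *Ndufa8*, *Sdhb*, *Uqcr11* and *Uqcrc1*. The YY1 site AAGATGGCG was in 9.86% of member windows and 1.40% of all windows, in 7 members among which were *Atp5j*, *Ndufs4* and *Ndufc1*. The ETS site CCGGAAGT was in 7.04% against 3.89%, for *Atp5h*, *Cox8a*, *Ndufs3*, *Uqcr11* and *Uqcrh*. The POU octamer ATGCAAAT was in 1.41% of member windows, that of *Ndufs4* alone, and in 1.74% of all windows. The NRF1 matches of *Sdhb* and *Uqcr11* lie outside the stretches printed above. Such a match describes the letters of the window and not a bound site.

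Levels were compared between members as mean CPM per kilobase of the principal transcript over the 23 embryos. *Cox4i1*, a nuclear-encoded subunit of complex IV, was the highest at 1727 CPM per kilobase, followed by *Cox6c* at 1167 and the complex III subunit *Uqcr10* at 1015. Among members that passed the low-count filter, the lowest were *Cox4i2* at 2.06, the ATP synthase c-subunit gene *Atp5g2* at 2.24 and *Sdhc* at 8.11 CPM per kilobase. Members with a tissue-restricted or duplicated counterpart were used unequally. *Cox4i1* stood far above *Cox4i2*, a lung-enriched form. *Cox6b1* was at 910.2 and *Cox6b2*, known from testis, at 37.0 CPM per kilobase. *Cox7a2* was at 649, *Cox7a2l*, a supercomplex assembly factor, at 65.7, and *Cox7a1*, the heart and skeletal muscle form, at 52.6 CPM per kilobase. *Cox7b* reached 87.7 and *Cox7b2* 8.88. The 3 genes for the identical mature c subunit stood at 131 (*Atp5g3*), 21.5 (*Atp5g1*) and 2.24 (*Atp5g2*) CPM per kilobase. *Cox6a1* was at 677, *Cox8a* at 469 and *Ndufa4*, first described with complex I and now placed in complex IV, at 669 CPM per kilobase. Within complex II, *Sdhb* was at 115, *Sdhd* at 45.3, *Sdha* at 20.5 and *Sdhc* at 8.11 CPM per kilobase.

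Of the members, 80 passed the low-count filter of every fit. The 5 that did not were *Cox6a2*, the muscle form, and a second *Atp5o* entry (ENSMUSG00000116933) with 0 counts in all libraries, *Cox8b* with 2 counts, *Ndufa4l2* with 3 and *Cox8c* with 25 counts in 5 libraries. In 27 members, over 25% of the exon bases are shared with another gene or lie in a near-identical genomic copy, so their counts are uncertain. Among them *Cox7a2l* has 72.9% of its exon bases in copies, *Uqcr11* 64.3%, *Ndufb11* 64.1%, *Ndufb3* 59.8%, *Ndufs5* 58.8%, *Uqcrb* 56.8% and *Cox8a* 53.8%. The rest are *Cox7b*, *Atp5h*, *Ndufs3*, *Ndufs6*, *Atp5k*, *Atp5g2*, *Ndufb6*, *Atp5g1*, *Cox5b*, *Cox7c*, *Ndufa1*, both *Atp5o* entries, *Ndufa12*, *Uqcr10*, *Uqcrh*, *Ndufa13*, *Atp5l*, *Ndufb4* and *Atp5f1*. Counting did not use strand. *Sdha*, *Sdhb*, *Sdhd*, *Ndufv2*, *Ndufa8*, *Cox6b1* and *Cox6b2* have no such bases, *Sdhc* has 5.26% and *Atp5b* 8.73%.

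Null embryos were first compared with het embryos, which carry 1 working allele, with the stages combined. Among the 80 members tested, *Cox6b2* rose by 2.68 on the log2 scale and *Sdhd* fell by 1.03, and *Sdhb* fell by less than 2-fold. No member of complexes I, III or V was called. Calls with the fold limit were thus 1 member up, beside 3.67% of all 13415 genes tested, and 1 member down, beside 2.06% of all genes. With any fold, 2 members were down, beside 2.38% of all genes. The median log2 difference was 0.11 over the members, 54 of them positive and 26 negative, and 0.02 over all genes tested.

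With the stages combined, complex II was the complex whose 4 members all lay below 0, with a median of -0.76. At E2.5 alone all 4 were lower than in het, but at E2.75 only 3 were. Against wild-type, 3 of the 4 were negative at each stage. *Sdhb* (ENSMUSG00000009863, chr4:140961203-140979193, + strand of GRCm38), the iron-sulfur subunit, ranged from 34.2 to 135 CPM with a median of 79.0 in the 7 null embryos. The 7 het embryos ranged from 87.5 to 183 CPM with a median of 143, and the 9 wild-type embryos from 93.7 to 255 with a median of 141. 5 null embryos lay below every het and wild-type embryo, and 2 did not. The log2 difference from het was -0.84 (SE 0.27, adjusted p = 0.0780). *Sdhd* (ENSMUSG00000000171, chr9:50596357-50603812, - strand), a membrane anchor, ranged from 14.6 to 45.8 CPM with a median of 31.8 in null, from 40.4 to 135 with a median of 58.7 in het and from 37.6 to 97.2 with a median of 70.8 in wild-type embryos. 5 null embryos were again below all others and 2, at 45.5 and 45.8 CPM, overlapped them. The log2 difference from het was -1.03 (SE 0.31, adjusted p = 0.0624). In exact two-sided permutation tests of mean log2 CPM over 3432 assignments, p was 0.00466 for *Sdhd* and 0.00699 for *Sdhb*, and with assignments kept within stages it was 0.00476 and 0.00714. These tests were run on members picked by the edgeR results in the same embryos. Their p-values are not adjusted for that choice and are no independent support.

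The other complex II subunits were lower by amounts that did not pass the test. *Sdha*, the flavoprotein that oxidises succinate, had medians of 62.2 CPM in null (11.99 to 84.6), 82.1 in het (51.0 to 102) and 47.0 in wild-type embryos (17.1 to 111), and the groups overlapped. Its log2 difference from het was -0.67 (SE 0.39, adjusted p = 0.397). *Sdhc*, the second membrane anchor, had medians of 22.1 CPM in null (3.05 to 41.4), 31.5 in het (13.7 to 43.0) and 21.3 in wild-type embryos (13.6 to 41.0), with a log2 difference of -0.62 (SE 0.44, adjusted p = 0.513). The lowest null values of *Sdhc* were those of E2.5 replicates 2 and 3, at 4.42 and 3.05 CPM. At E2.75 all 3 null embryos lay above all 3 wild-type embryos for *Sdhc*, as for 12.5% of all 14442 genes. Summed over the 4 genes, complex II RNA was 181 ± 22.0 CPM (SD, n = 7) in null, 317 ± 55.3 (n = 7) in het and 309 ± 60.6 CPM (n = 9) in wild-type embryos. All 7 null sums, from 151 to 208 CPM, lay below all the others, which began at 237 CPM in het and 242 CPM in wild-type embryos. Without TMM factors the null sums, 143 to 228, lay below all het sums, from 247, and 5 of the 7 lay below all wild-type sums, from 211. Relative to the ERCC counts of each library, all 7 null sums again lay below all het sums, and 4 of the 7 also below all wild-type sums. Of single members with the stages combined, 0 had every null embryo below every het embryo, beside 0.686% of all genes. Against wild-type embryos it was 0, beside 0.149%. The sums hold *Sdhb* and *Sdhd*, already named as lower, so they are no separate support. No such share was counted for sums of other genes.

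*Cox6b2* (ENSMUSG00000051811, chr7:4751792-4753094, - strand), a paralog of the complex IV subunit that joins its dimer, went the other way. Its level ranged from 5.78 to 123 CPM with a median of 55.9 in null, from 1.48 to 27.0 with a median of 5.38 in het and from 1.33 to 25.1 CPM with a median of 4.79 in wild-type embryos. 5 null embryos were above every other embryo and 2 E2.5 nulls, at 5.78 and 12.5 CPM, were not. The log2 difference was 2.68 (SE 0.73, adjusted p = 0.0342), and the exact permutation p was 0.00641 (0.00714 within stages). Its paralog *Cox6b1* (chr7:30616861-30626151, - strand) was at 389 to 718 CPM in null, 371 to 596 in het and 233 to 1080 CPM in wild-type embryos, a log2 difference of 0.25 (SE 0.26, adjusted p = 0.686) that turned to -0.88 under ERCC scaling. For each 100 CPM of *Cox6b1* there were 1.13 to 31.6 CPM of *Cox6b2* in null (median 7.96), 0.31 to 5.01 in het (median 0.90) and 0.22 to 3.92 in wild-type embryos (median 0.94). *Cox6b1* thus remained the more abundant form in all embryos. Testis germ cell markers, as a list of 8 genes, summed to at most 21.2 CPM in any embryo, and *Pgk2* and *Tnp1* were at 0 in all 3 genotypes. None of the list passed the filter of the fit with the stages combined. The sum of 21.2 CPM was that of an E2.5 null embryo, in a group with a median of 5.10 beside 0.45 CPM in E2.5 wild-type embryos, and nearly all of it was *Ldhc*, the lactate dehydrogenase of sperm, at 21.1 CPM. At E2.5, *Ldhc* was at 0 in both het embryos and at 0.21, 21.1, 1.83 and 0 CPM in the 4 null embryos, and it was the 1 marker tested there (unadjusted p = 0.0402, adjusted p = 0.522 by edgeR, null against het). The relation of the level of *Cox6b2* to that of these markers was not tested.

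**Figure D1:**
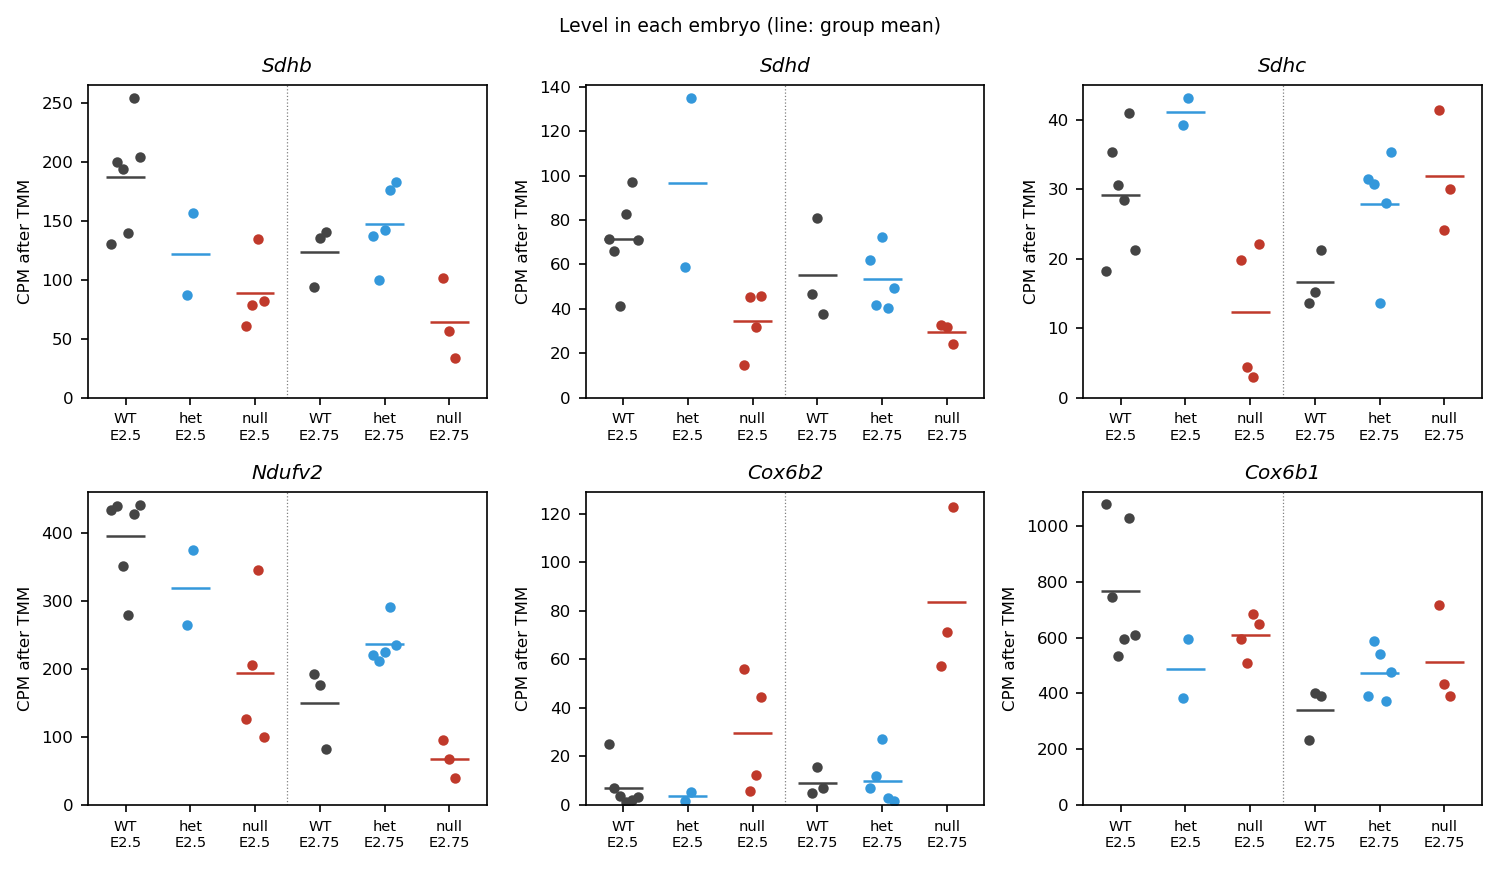
Levels of 6 members in each embryo (CPM after TMM, y axes), grouped by genotype and stage on the x axis, with a point per embryo and a line at each group mean. Null embryos lie mostly below the others for *Sdhb* and *Sdhd* and mostly above for *Cox6b2*, while *Cox6b1* overlaps between genotypes.

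In the other complexes the differences were small. Complex I had a median of 0.06 over 35 members, with *Ndufv2* lowest at -0.89 (SE 0.37, adjusted p = 0.200) and *Ndufa7* highest at 0.67 (SE 0.28, adjusted p = 0.208). *Ndufv2* is a core subunit of the NADH-oxidising arm. The 7 core subunits had a median of -0.26, with 5 negative, and the 28 accessory subunits a median of 0.15. Complex III ran from -0.56 for *Uqcrc1* to 0.57 for *Uqcrfs1*, the Rieske iron-sulfur protein, whose adjusted p of 0.108 just missed the threshold. All 16 tested members of complex IV were at or above 0, from 0.00 for *Cox6a1* to *Cox6b2*, with a median of 0.21. Within either stage alone, 11 were positive and 5 negative. The null group holds more E2.5 embryos than the het group. Complex V ran from -0.66 for *Atp5g2* to 0.54 for *Atp5h*. The signs outside complex II depend on the scaling: with libraries scaled to the ERCC spike-ins, where the median of all genes moved to -1.08, the member median was -0.97, 79 members were negative, and the split of calls changed from 1 up and 1 down to 1 up and 37 down, beside 2.15% and 33.4% of all genes. With DESeq2 size factors it was 1 up and 0 down, beside 3.8% and 1.88%. All 4 members of complex II were negative under TMM, DESeq2 size factors and ERCC scaling, with medians of -0.76, -0.75 and -1.84. A change of scaling moves all genes by about the same amount, so these signs are no independent support. On the ERCC scale, as on the TMM scale, the member median lay close to that of all genes and complex II below both.

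**Figure D2:**
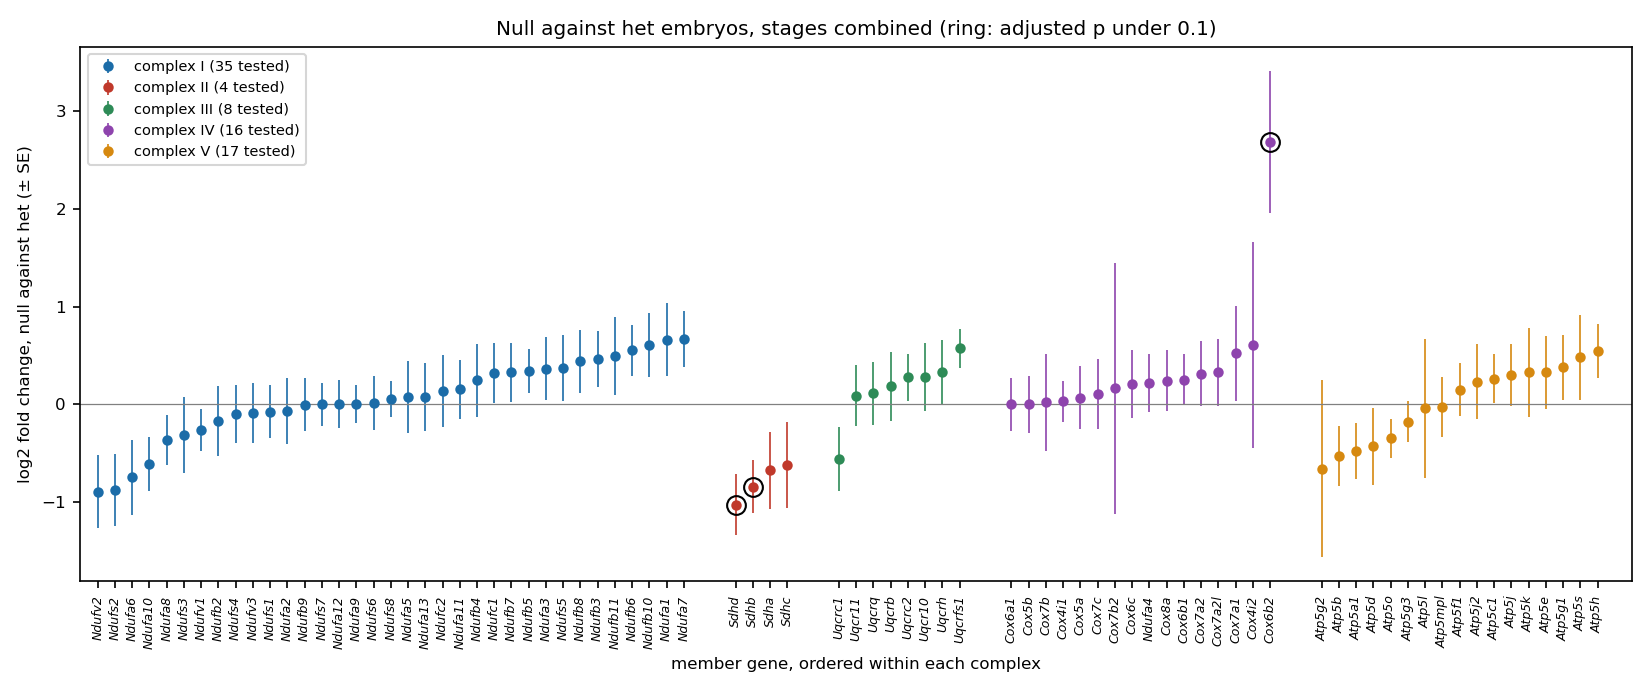
Log2 fold change between null and het embryos with the stages combined (y axis, points with SE bars, edgeR with TMM) for the 80 members tested, named on the x axis and ordered within each complex, with a ring where the adjusted p was under 0.1. Complex II lies wholly below 0 with a median of -0.76 and *Cox6b2* is the highest point at 2.68, while under ERCC scaling 79 of the 80 points lie below 0.

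These calls rested in part on single embryos. *Cox6b2* was called in all 14 fits that left out 1 embryo, and *Sdhd* in 11, its call being lost without E2.5 het replicate 2, E2.5 null replicate 1 or E2.75 null replicate 3, each of which left 1 member called, while leaving out E2.5 null replicate 3 gave 4 (1 up and 3 down). *Sdhb*, with any fold, had an adjusted p under 0.1 in 5 of the 14, with values up to 0.148. With stage as a covariate 1 member was up and 2 were down, the second being *Ndufv2* at -1.43 (adjusted p = 0.00383).

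Against wild-type embryos, with the stages combined, null embryos again had more *Cox6b2* and less *Sdhb* and *Sdhd*, and *Ndufv2* passed the limits as well. A total of 1 member rose, beside 3.66% of all genes tested, and 3 fell, beside 1.59%. With any fold 4 fell, beside 2%, the fourth being *Ndufa8*. *Cox6b2* was higher by 2.75 (SE 0.66, adjusted p = 0.0151), *Sdhb* lower with a log2 difference of -1.08 (SE 0.26, adjusted p = 0.0135) and *Sdhd* with -1.03 (SE 0.30, adjusted p = 0.0466). *Sdha* and *Sdhc* were at -0.08 and -0.28 and did not pass the test. The median was -0.18 over the members, 59 of them negative, and -0.02 over all genes.

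*Ndufv2* (ENSMUSG00000024099, chr17:66078638-66101559, - strand) ranged from 39.0 to 345 CPM with a median of 100 in null, from 212 to 374 with a median of 235 in het and from 82.5 to 440 CPM with a median of 350 in wild-type embryos. Of the 7 null embryos, 6 lay below every het embryo, and the ranges of null and wild-type overlapped. Its log2 difference from wild-type was -1.16 (SE 0.36, adjusted p = 0.0687), with an exact permutation p of 0.0158, or 0.00143 within stages. *Ndufa8* (ENSMUSG00000026895, chr2:36036326-36049406, - strand), an accessory subunit of complex I, ranged from 41.5 to 111 CPM with a median of 70.0 in null and from 91.3 to 232 with a median of 156 in wild-type embryos, a log2 difference of -0.92 (SE 0.24, adjusted p = 0.0296). Het embryos, at 67.3 to 117 CPM, overlapped both groups for this gene, and the exact permutation p of null against het was 0.111. *Sdhb* and *Sdhd* each gave an exact permutation p of 0.00114 over 11440 assignments against wild-type, *Ndufa8* 0.00280 and *Cox6b2* 0.00297. Leaving out 1 embryo at a time, *Cox6b2* was called in 16 of 16 fits, *Sdhb* in 14, *Sdhd* in 11 and *Ndufv2* in 7, and the count fell to 2 without E2.5 null replicate 1 and to 1 without E2.5 wild-type replicate 5 or E2.75 null replicate 3. Without E2.5 wild-type replicate 6, the library with *Dis3* in the null range, 1 member was up and 2 were down.

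Het and wild-type embryos, which differ by 1 null allele, were compared in the same fit. No member was up, beside 0% of all genes, and none was down, beside 0%. At an unadjusted p under 0.05 there were 5 members, beside 6.96% of all genes, and DESeq2 called 0 members too. The member median was -0.31, with 64 of 80 negative, against -0.03 over all genes, and under ERCC scaling it was 0.59 against 0.71, while the wild-type group holds more E2.5 embryos than the het group. With stage as a covariate the member median was -0.02.

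At E2.5 alone, null against het called 0 members up, beside 0% of 15904 genes, and 0 down, beside 0.0126%. There were 6 members with an unadjusted p under 0.05, beside 9.26% of all genes, and DESeq2 called 0. The het group holds 2 embryos here. The direction of the members named above was the same: *Sdhd* at -1.55 (SE 0.48, adjusted p = 0.480), *Sdhb* at -0.52 (SE 0.37, adjusted p = 0.684) and *Cox6b2* at 3.004 (SE 1.37, adjusted p = 0.527). *Sdhd* was at 14.6, 45.5, 31.8 and 45.8 CPM in the 4 null embryos and at 58.7 and 135 CPM in the het embryos. All null values lay below both het values, as they did for 9.59% of all genes. Against the 6 wild-type embryos at E2.5, 0 members were up, beside 1.36%, and 1 was down, beside 0.459%. This was *Sdhb*, at 60.7, 79.0, 135 and 82.0 CPM in null and from 130 to 255 CPM, with a median of 197, in wild-type embryos. Null replicate 3 alone lay inside the wild-type range. The log2 difference was -1.10 (SE 0.29, adjusted p = 0.0998), and among 10 fits that left out 1 embryo the call held without wild-type replicate 1 (1 member) or null replicate 3 (2 members), and 0 members were called in the other 8.

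At E2.75 null against het called *Cox6b2* up, beside 2.51% of 14442 genes, and *Ndufv2* and *Sdhb* down, beside 2.31%. *Ndufv2* was at 95.1, 68.2 and 39.0 CPM in the 3 null embryos and at 220, 212, 224, 291 and 235 CPM in the 5 het embryos. The groups did not overlap, and every null embryo lay below every het embryo in 6.11% of all genes. Its log2 difference was -1.84 (SE 0.34, adjusted p = 0.0115), and it was called in all 8 fits that left out 1 embryo. *Sdhb* was at 102, 56.9 and 34.2 CPM in null and at 137, 99.8, 143, 176 and 183 CPM in het embryos, where null replicate 1 and het replicate 2 overlapped. Its log2 difference was -1.23 (SE 0.35, adjusted p = 0.0774), and it was called in 3 of those 8 fits. *Cox6b2* was at 57.2, 71.3 and 123 CPM in null and at 6.99, 12.1, 27.0, 2.84 and 1.48 CPM in het embryos. All null values lay above all het values, as they did for 7.7% of all genes, with a log2 difference of 3.02 (SE 0.71, adjusted p = 0.0342). *Cox6b2* lost its call without null replicate 3, which left 1 member called.

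Against wild-type at E2.75, 2 members were up, beside 2.19%, and 1 was down, beside 2.35%. *Cox6b2* was at 4.79, 15.7 and 7.20 CPM in the 3 wild-type embryos, below all nulls, as were 12.5% of all genes. Its log2 difference was 3.12 (SE 0.86, adjusted p = 0.0748). *Ndufa7*, an accessory subunit of complex I, was at 455, 203 and 241 CPM in null and 144, 160 and 127 CPM in wild-type embryos, a log2 difference of 1.03 (SE 0.31, adjusted p = 0.0992). *Ndufv2* was at 192, 177 and 82.5 CPM in wild-type embryos, so that wild-type replicate 3 lay inside the null range, with a log2 difference of -1.20 (SE 0.36, adjusted p = 0.0987). *Atp5f1*, a stalk subunit of ATP synthase, was lower with any fold at -0.81 (SE 0.23, adjusted p = 0.0850). In the 6 fits that left out 1 embryo, *Cox6b2* was called in 0 (adjusted p 0.1001 to 0.217 by edgeR), *Ndufa7* in 1 and *Ndufv2* in 2, and *Atp5f1* had an adjusted p under 0.1 in 0. The member median was 0.34 against -0.01 over all genes (-0.11 against -0.40 under ERCC scaling), and complex IV had the highest of the 5 complex medians at 0.66. Without the 2 shallow null libraries no member was called, and leaving out single embryos gave 0 called without wild-type replicate 1, wild-type replicate 2 or null replicate 3, and 1 without wild-type replicate 3 or null replicate 2.

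On the TMM scale, 35 of 80 members were called down from E2.5 to E2.75 in wild-type embryos, beside 3.64% of 18677 genes. Only 1 was called up, beside 3.74%. Under ERCC scaling, where the median of all genes moved to 0.89, 0 were called down and 9 up, beside 0.316% and 17.2% of all genes. With any fold 38 fell, beside 4.67%, and 2 rose, beside 3.94%. The member median was -1.08, with 69 negative, against -0.00089 over all genes on the TMM scale. On the ERCC scale it was -0.01 against 0.89. A change of scaling moves all genes by about the same amount, so the similar gap on both scales is no second result. In 38 members all 3 E2.75 embryos were below all 6 E2.5 embryos, beside 6.38% of all genes, and in 3 members (*Atp5b*, *Atp5d* and *Sdha*) all 3 were above, beside 5.03%.

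On the TMM scale the members called down came from 4 of the 5 complexes. On the ERCC scale no member was called down, while 40 of the 80 tested were negative. On the TMM scale, 14 of 35 members fell in complex I, with a median of -0.91, and 12 of the 14 were accessory subunits. They included *Ndufb8* at -1.67 (SE 0.26, adjusted p = 0.000783), *Ndufa5* at -1.80 and *Ndufa6* at -1.76. The core subunits that fell were *Ndufv2* at -1.39 (SE 0.35, adjusted p = 0.0192) and *Ndufs3* at -1.33. *Ndufb8* was at 524 to 945 CPM with a median of 735 in the E2.5 wild-type embryos and at 227, 276 and 198 CPM at E2.75. These ranges did not overlap. In complex III, 5 of 8 fell: *Uqcr10* (-1.65), *Uqcr11* (-1.57), *Uqcrb* (-1.55), *Uqcrq* (-1.48) and *Uqcrh* (-1.42), all of them small subunits without a redox centre, whereas *Uqcrc1*, a large core protein, rose by 0.95 (SE 0.33, adjusted p = 0.0945).

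In complex IV, 9 of 16 fell on the TMM scale (0 on the ERCC scale), with a median of -1.26. *Cox7a1* at -1.80 and *Cox6c* at -1.65 were the lowest, *Cox6b1* was at -1.17 (SE 0.28, adjusted p = 0.0144), and *Cox7a2l*, *Cox7a2*, *Cox5a*, *Cox6a1*, *Cox8a* and *Ndufa4* fell by 1.16 to 1.46. *Cox4i1*, the most abundant, was at -0.56 and did not pass the test (adjusted p = 0.170). In complex V, 7 of 17 fell on the TMM scale (0 on the ERCC scale), led by *Atp5k* at -1.98, *Atp5j2* at -1.64 and *Atp5j* at -1.61, with *Atp5e*, *Atp5h*, *Atp5g1* and *Atp5mpl* between -1.41 and -1.27. *Atp5b* (ENSMUSG00000025393, chr10:128083273-128090391, + strand), the catalytic beta subunit, rose. It was at 360 to 700 CPM with a median of 506 in E2.5 wild-type embryos and at 1097, 1363 and 1203 CPM at E2.75, without overlap, a log2 change of 1.25 (SE 0.23, adjusted p = 0.00258). No member of complex II was called. *Sdha* was at 1.24 (SE 0.44, adjusted p = 0.103), *Sdhc* at -0.81, *Sdhb* at -0.60 and *Sdhd* at -0.38. Of the 26 tested members with shared or copied exon bases 12 fell, and of the other 54 members 23.

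The members called down on the TMM scale, 0 of which were called down on the ERCC scale, mostly had short transcripts. Of the 20 members with a principal transcript of up to 600 nt, 60.0% fell, against 17.2% of the other protein-coding genes in that class. In the next class, up to 800 nt, it was 63.2% of 19 members against 19.3%, then up to 1000 nt 33.3% of 9 members against 15.6%, and up to 1500 nt 28.6% of 14 members against 9.18%. Up to 2000 nt, 18.2% of 11 members fell against 3.59% of other genes, and up to 3000 nt 0 of 4 members did against 3.56%. Of the 3 members over 3000 nt, 2 fell (66.7%), against 1.98% of other genes. Other protein-coding genes of up to 600 nt had a median of -1.07, and the members in that class -1.36. An added fit with an offset that takes out each library's trend of level on transcript length, chosen after the data were seen, called 8 members down and 2 up, beside 3.83% and 2.36% of all genes, with a member median of -0.35 against -0.10 over all genes. The 8 were *Ndufb2*, *Atp5g1*, *Ndufa5*, *Ndufv2*, *Cox7a2l*, *Ndufc1*, *Atp5j2* and *Uqcrq*, and the 2 were *Atp5b* and *Atp5d*.

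**Figure D3:**
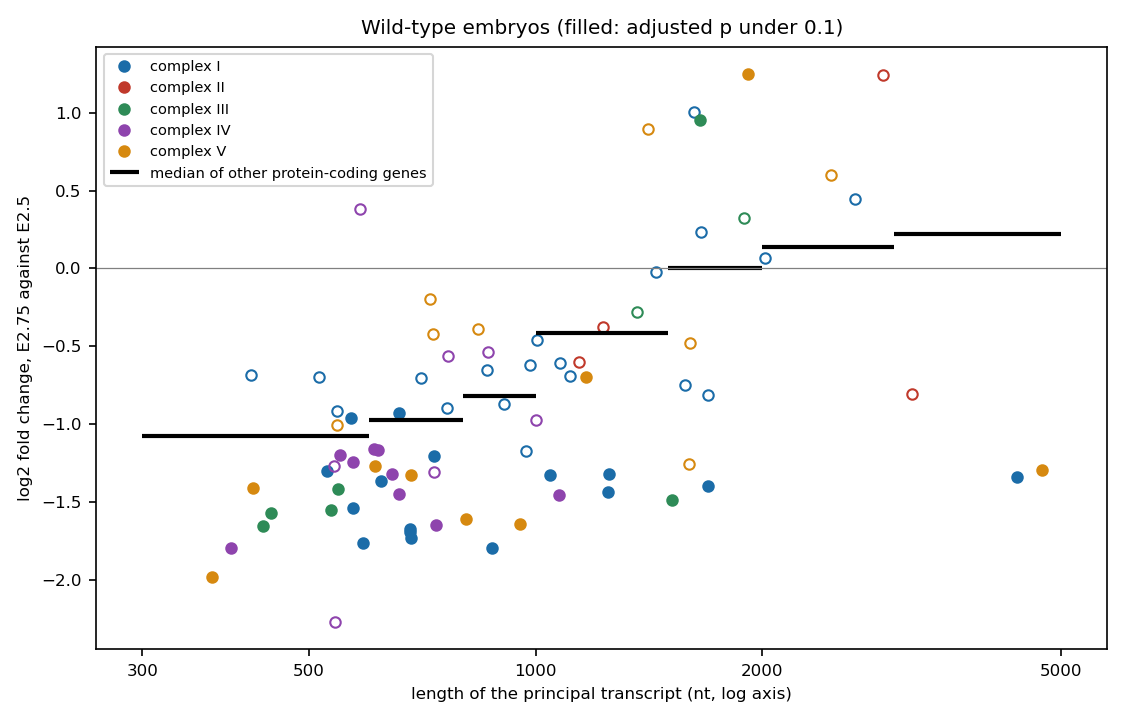
Log2 fold change from E2.5 to E2.75 in wild-type embryos (y axis, TMM scale) against the length of the principal transcript (x axis, nt, log axis) for the 80 members, coloured by complex, filled where the adjusted p was under 0.1, with black lines at the median of the other protein-coding genes in each length class. Short members lie low on this scale, where the other genes of up to 600 nt also have a median of -1.07. On the ERCC scale the median of all genes is 0.89, 40 of the 80 members are negative and no member was called down.

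On the TMM scale, summed levels show the same by embryo. Members of up to 1000 nt summed to 10353 to 21888 CPM in E2.5 wild-type embryos and to 5852 to 7365 CPM at E2.75, without overlap. Members over 1500 nt summed to 2971 to 4526 CPM at E2.5 and to 3337 to 3923 CPM at E2.75, inside the E2.5 range. Per ERCC count, the counts of all members were 0.290 to 0.457 at E2.5 and 0.341 to 0.518 at E2.75, and these ranges overlapped. Among other protein-coding genes, the ratio of summed CPM up to 1000 nt to that over 1500 nt was also lower at E2.75, without overlap. It was 0.149 to 0.236 at E2.5 and 0.0959 to 0.112 at E2.75. Oocyte markers moved with stage as well: the list of 10 summed to 66.8 to 138 CPM at E2.5 and 21.4 to 44.2 CPM at E2.75 in wild-type embryos, with *Zp1* at 0 in the later group, all 10 negative and 0 called. Their part in the change of the members was not tested. Without E2.75 wild-type replicate 3, 22 members were called, and without E2.5 wild-type replicate 6, 38 were down and 3 up.

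**Figure D4:**
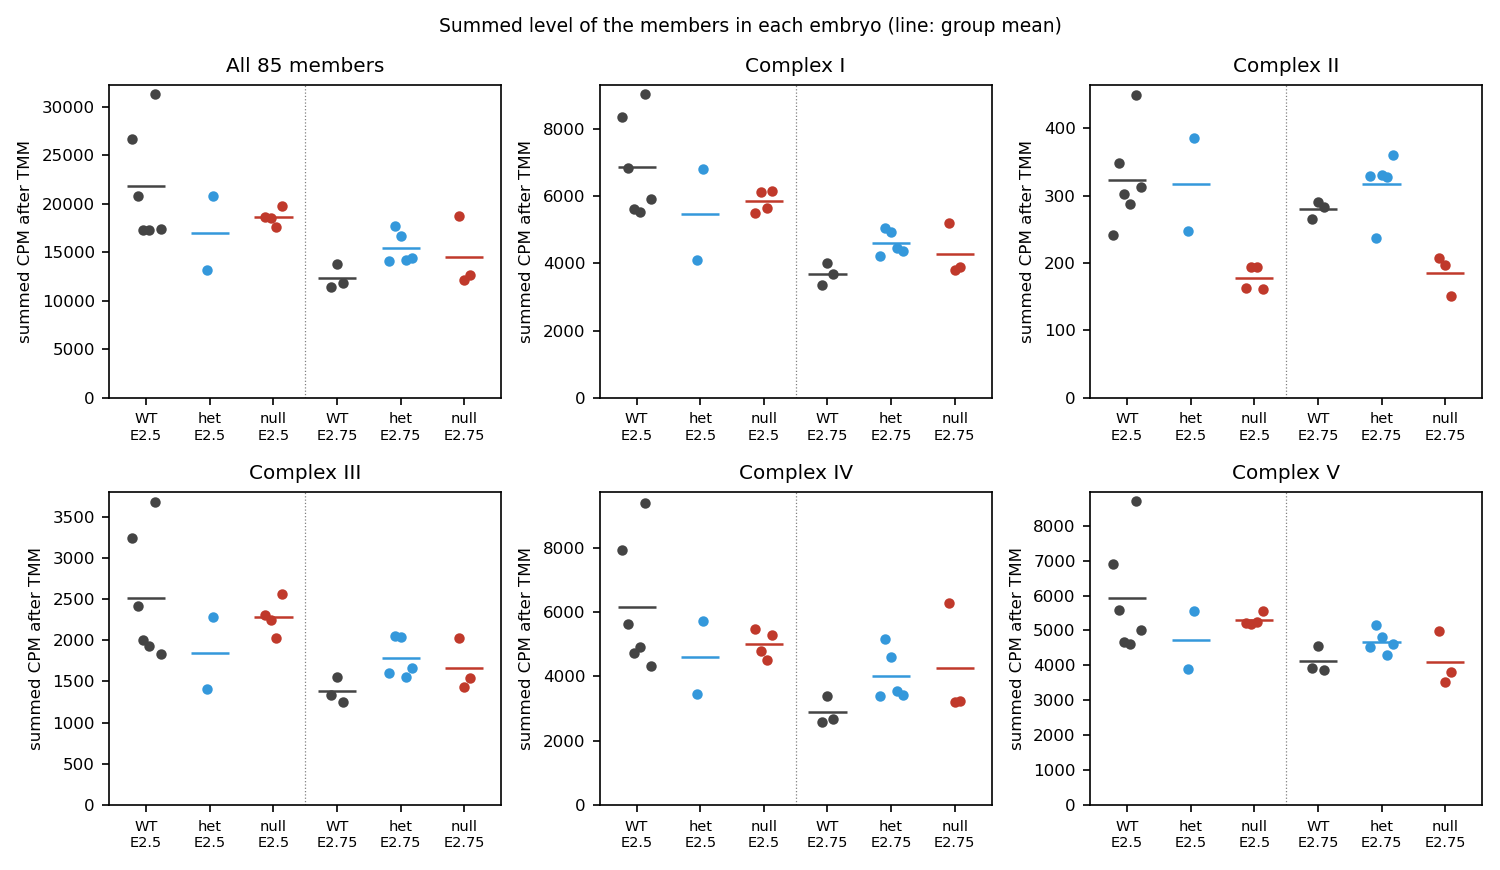
Summed CPM after TMM (y axes, from 0) of all 85 members and of each complex, by genotype and stage (x axis), with a point per embryo and a line at each group mean. The complex II sums of the 7 null embryos, 151 to 208 CPM, lie below those of the other 16, though no single member separated the genotypes in this way. The sums of all members in the 3 E2.75 wild-type embryos, 11443 to 13796 CPM, lie below those of the 6 at E2.5, 17259 to 31277 CPM. Per ERCC count, the member counts of these wild-type groups overlap, at 0.341 to 0.518 and 0.290 to 0.457.

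In null embryos 3 members were called down from E2.5 to E2.75 on the TMM scale, beside 1.77% of all genes. On that scale 0 were called up, beside 1.24%. Under ERCC scaling, with a median of 0.97 over all genes, 0 were called down and 10 up, beside 0.209% and 10.5% of all genes. The 3 called down on the TMM scale were *Atp5c1*, the gamma subunit of the ATP synthase rotor, at -1.19 (SE 0.22, adjusted p = 0.00993), *Atp5f1* at -1.37 (SE 0.26, adjusted p = 0.0113) and *Ndufv2* at -1.55 (SE 0.37, adjusted p = 0.0333). *Atp5c1* was at 1126, 1425, 1615 and 1452 CPM in the E2.5 nulls and at 554, 563 and 745 CPM in the E2.75 nulls. *Atp5f1* was at 538, 903, 937 and 853 CPM and then at 254, 336 and 352 CPM, and neither gene's ranges overlapped. Every E2.75 null lay below every E2.5 null in 5.85% of all genes. The member median was -0.37 against 0 over all genes on the TMM scale and 0.57 on the ERCC scale. Without the 2 shallow E2.75 nulls 0 were called, and without E2.5 null replicate 1 there were 5.

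In het embryos 0 members rose, beside 0.00535% of all genes, and 0 fell, beside 0.273%, while 9 had an unadjusted p under 0.05, beside 9.03%, and DESeq2 called 3 up. The member median was -0.28, or 0.34 under ERCC scaling against 0.54 over all genes. Whether the null against wild-type difference itself differed between stages was tested as an interaction. There 0 members were up, beside 0%, and 0 down, beside 0%, while 23 had an unadjusted p under 0.05, beside 11%, and DESeq2 called 1. The median interaction was 0.56 over the members and 0.08 over all genes, with the highest complex median, 0.94, in complex IV.

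Related genes were described from lists chosen by function, for null against het with the stages combined. Of 45 tested assembly factors of the complexes, *Uqcc3* (1.57, adjusted p = 0.0336) and *Cox18* (1.17, adjusted p = 0.0692) rose and *Uqcc2* (-1.31, adjusted p = 0.0756) and *Acad9* (-1.01, adjusted p = 0.0855) fell, with a list median of 0.13. *Uqcc2* and *Uqcc3* act in complex III assembly, *Cox18* inserts a complex IV subunit and *Acad9* serves complex I assembly. Of 13 TCA cycle enzymes beside succinate dehydrogenase, *Idh3a* (-1.81, adjusted p = 0.0637) and *Suclg2* (-1.14, adjusted p = 0.0742) fell, with a list median of -0.39. Of 14 glycolytic genes 0 were called, with *Aldoa* (ENSMUSG00000030695) lower at any fold (-0.93, adjusted p = 0.0828) and a list median of -0.86. Of 14 regulators of mitochondrial gene expression 0 were called, with *Gabpb1* higher at any fold (0.90, adjusted p = 0.0455), and of 7 tested mRNAs from mitochondrial DNA and 6 subunits outside the rule 0 were called, with list medians of 0.25 and -0.28. Against wild-type, *Ndufab1*, the acyl carrier subunit outside the rule, fell by 1.06 (adjusted p = 0.0876). Among 7 tested of 8 trophectoderm markers, *Gata3* (-2.12, adjusted p = 0.00942) and *Krt18* (-2.95, adjusted p = 0.0352) fell in null against het. The list summed to 231 to 503 CPM in null, 424 to 1019 in het and 215 to 603 CPM in wild-type embryos. *Elf5* was at 0 in wild-type, and the null and wild-type ranges overlapped. Null against wild-type called 0 of the 7, with a median of -0.50, and het against wild-type 0, with a median of 1.02. The het group holds the most E2.75 embryos. Of the inner cell markers 0 of 7 and of the oocyte markers 0 of 9 tested were called. Under ERCC scaling 0 genes of these lists rose, and 14 of the assembly factors, 10 TCA cycle enzymes and 8 glycolytic genes fell, beside the 33.4% of all genes given above. The part of these cell populations in the member differences was not tested. Of 10 cumulus cell markers 1 passed the filter, and that list summed to at most 27.2 CPM.

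Over the wild-type stages on the TMM scale, where 3.64% of all genes fell and 3.74% rose, 11 of 45 assembly factors fell with a list median of -0.78, whereas under ERCC scaling 2 fell and 5 rose with a median of 0.16. Among the 11 were *Tmem70* (-1.56, adjusted p = 0.000652), *Cox14* (-1.89, adjusted p = 0.00199) and *Uqcc3* (-2.14, adjusted p = 0.00258), while *Ecsit* rose by 1.40. In glycolysis 4 of 15 rose and 0 fell (8 and 0 under ERCC scaling), namely *Gpi1* (2.42), *Pkm* (2.17), *Ldha* (2.00) and *Hk1* (1.87), with a list median of 1.02, or 2.01 under ERCC scaling. In the TCA cycle list *Cs*, citrate synthase, rose by 1.86 and *Ogdh* by 1.89, with 0 down (4 up and 0 down of 13 under ERCC scaling). Of the 8 tested mRNAs from mitochondrial DNA *mt-Nd6* fell by 1.24, while under ERCC scaling 0 of the 8 fell and 2 rose.

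Each ChIP replicate has 2 peak lists, the first against IgG in the *Pou6f1-mCherry* cells and the second against anti-mCherry in cells with mCherry alone. The labels hold 1 library of each control, so they show no separate controls for the 2 replicates. POU6F1 peaks were counted as those of the first list that both replicates share, 17994 peaks, and a member was called occupied with a peak within 1 kb of an annotated start. Of the 85 members 64 were occupied, 75.3%, beside 65.3% of the 13415 genes tested in embryos, among which 63 of the 80 tested members were. All 4 members of complex II and all 8 of complex III had a peak, as did 17 of 18 in complex V, 24 of 35 in complex I and 11 of 20 in complex IV. No test was made of these shares. The summit lay within 100 bp of the start in 49 of the 64, with a median distance of 47.0 bp. With peaks required in the lists against both controls, 22 members were occupied, 25.9%, beside 23.9% of all genes tested.

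The fold enrichment of the members' peaks over control ran from 4.02 to 40.1 in replicate 1 (median 18.7) and from 3.10 to 14.04 in replicate 2 (median 6.61), and was higher in replicate 1 for 63 of the 64 members, the exception being the second *Atp5o* entry, which has 0 counts in all libraries, at 4.02 against 4.35. *Uqcrq* was the highest in replicate 1, with 40.1 and 10.7 in the 2 replicates. *Sdhb* had 27.0 and 12.4 in a peak at chr4:140961053-140961568 that spans its start and holds the stretch printed above, *Sdha* had 27.5 and 7.90 at chr13:74350087-74350537, and *Sdhc* had 26.4 and 7.95 at chr1:171150422-171150674. The peak of *Sdhd* at chr9:50603822-50604122 was weaker, with 13.998 and 5.08, and lies 10 bp from the start. *Cox6b2*, which was higher in null embryos, had 22.2 and 11.5 in a peak inside the gene at chr7:4752023-4752800, and *Cox6b1* had 8.82 and 4.28. *Ndufv2*, which was lower, had no peak within 1 kb, the nearest lying 9955 bp away. Among the other 20 members without a peak were *Cox6c*, *Ndufa5*, *Ndufs3*, *Ndufc2* and *Atp5j2*, which fell over the wild-type stages, and 4 of the 5 members not tested in embryos, *Cox6a2*, *Cox8b*, *Cox8c* and *Ndufa4l2*. Of the 35 members that fell between the wild-type stages 26 were occupied (74.3%), and of the other 45 tested members 37 (82.2%).

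**Figure D5:**
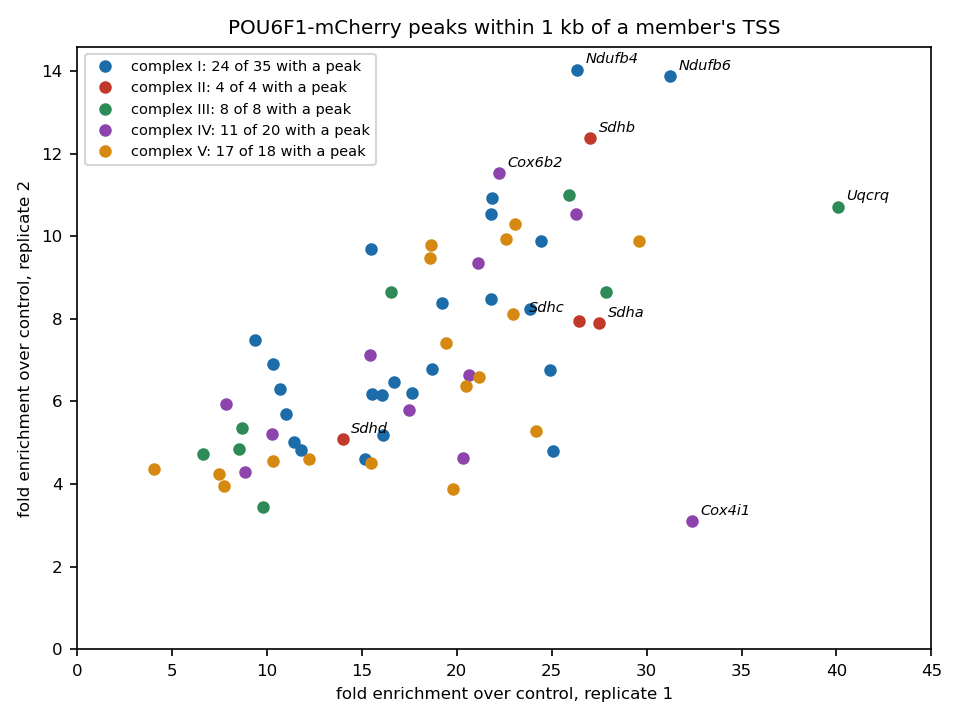
Fold enrichment over control of the POU6F1 peak at each of the 64 occupied members in ChIP replicate 1 (x axis) and replicate 2 (y axis), both linear and from 0, coloured by complex. Replicate 1 values run from 4.02 to 40.1 and replicate 2 values from 3.10 to 14.04, and the complex II genes *Sdha*, *Sdhb* and *Sdhc*, at 27.5, 27.0 and 26.4, lie close together in replicate 1 with *Sdhd* below them.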

How the data were processed

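The members and the gene lists were chosen with earlier results of these data known. Per the labels and the study's methods, single-embryo poly(A) RNA was amplified with ERCC spike-ins, and the authors trimmed reads with Cutadapt 3.4, aligned them with STAR 2.7.8a to GRCm38 and deposited raw gene counts from HTSeq 0.11.4 without strand. For ChIP-seq, the authors aligned with Bowtie2 2.4.4 and deposited MACS2 2.2.7.1 peaks of each replicate against IgG (first list) and mCherry-only cells (second list), with a score, the fold enrichment and the −log10 p and q values. The test was that of edgeR (version 4.0.16, R 4.3.3, with TMM, filterByExpr, quasi-likelihood, Benjamini-Hochberg over all genes tested), with lines that name no gene left out. The combined fit held 13415 genes, and stage changes came from a fit of 6 groups. Exact permutation tests used log2 CPM with a prior count of 2, only for members picked by the edgeR results, and their p-values are unadjusted. Shared exon bases were found from annotation overlaps and with blastn hits of 95% identity over at least 50 bp. Consensus peaks, from the first list of each replicate and overlapping by at least 1 bp between replicates, were matched to GENCODE starts with bedtools 2.31.1. Scripts were tested on simulated data. Named members were those called in any comparison, the extremes of each complex in null against het, members with a tissue-restricted or duplicated counterpart, all of complex II, the highest and lowest levels per kilobase, members not tested or with shared exon bases, and genes of the other lists called in null against het. Other genes named were chosen after their values were seen. Alternatives were DESeq2 1.42.0, other scalings, no filter, a replicate block, stage as a covariate and leaving out embryos.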

Additional observations from a re-analysis of the deposited data

Results flagged for a closer look

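Among the samples of a group, 3 of 63 combinations of a measure and a group had 1 embryo far from the others by Dixon's criterion, which chance gives in about 1 of 20. The summed level of complex II was 237 CPM in E2.75 het replicate 2, below the 327 to 360.1 CPM of the other 4 het embryos of that stage and above all null embryos. The summed level of complex V was 5561 CPM in E2.5 null replicate 4, above the 5197 to 5237 CPM of the other 3. *Cox6b2* was at 25.1 CPM in E2.5 wild-type replicate 1, above the 1.33 to 6.97 CPM of the other 5, and below 5 of the 7 null embryos.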

How the results depend on the processing

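Of 1152 recomputed values of single members and *Dis3*, 911 kept their direction and their side of the threshold, 205 fell short of it, 32 newly passed it and 4 reversed, all under ERCC scaling: *Cox6b1* in null against het (-0.88), and *Ndufs6* (0.0155), *Atp5c1* (0.30) and *Ndufb6* (0.17) over the wild-type stages. Among the 686 values from fits that left out 1 embryo 578 kept both, and among the 466 from other settings 333 did. ERCC scaling gave 38 members called in null against het, 20 at E2.5 and 23 at E2.75, 0 and 5 in null against wild-type at E2.5 and E2.75, 9 over the wild-type stages and 10 over the null stages, and the cause was not tested. DESeq2 size factors left 1 in null against het and 0 in null against wild-type at E2.5. DESeq2 called 3 and 8 in null against wild-type at E2.5 and E2.75, 6 over the null stages, 3 over the het stages and 1 for the stage difference. No filter gave 2 and 6 in null against wild-type at E2.5 and E2.75, 3 for the stage difference and 1 over the het stages. The transcript length offset, added after the data were seen, gave 1 in null against het, 1 in null against wild-type, 0 and 1 of these at E2.5 and E2.75, and 10 over the wild-type stages. Without the 2 shallow E2.75 null libraries, also added, 0 were called in null against wild-type at E2.75 and 0 over the null stages. Requiring peaks against both controls left 22 members occupied. Equal replicate numbers do not pair embryos: over 17 pairs the correlation of deviations ran from -0.106 to 0.0858. With the replicate block 2 members were called in null against wild-type, 0 and 1 of these at E2.5 and E2.75, and 1 in null against het at E2.75. Leaving out 1 embryo at a time gave 1 to 4 called in null against het, 1 to 4 in null against wild-type, 1 to 3 in null against het at E2.75, 0 to 2 in null against wild-type at E2.5, 0 to 2 at E2.75, 22 to 41 over the wild-type stages and 2 to 5 over the null stages. The small het group at E2.5 and the shallow null libraries at E2.75 limit the tests by stage.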
